A study of Neurospora crassa with 12 samples.

Results

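The transcripts of 6 heat shock protein and chaperone genes of the filamentous fungus Neurospora crassa were followed in RNA-seq libraries of germinated conidia. They were hsp70-1 (NCU09602), hsp80 (NCU04142), hsp30 (NCU09364), hsp98 (NCU00104), hsp60 (NCU01589) and grp78 (NCU03982), taken by gene ID from the 9730 genes counted in every library, and all 6 passed the filter on low counts in each comparison. In the NC12 assembly their annotated spans lie on linkage group I for hsp30 (3586694 to 3588207), II for hsp70-1 (79724 to 82693) and hsp60 (3012906 to 3015387), III for hsp98 (2634913 to 2638616), V for hsp80 (4974497 to 4977515) and VI for grp78 (2329825 to 2332792). The study asked how the loss of PAC-3, the zinc finger factor of the ambient pH response, acts on transcription when inorganic phosphate (Pi) is scarce or abundant. Its 12 libraries fall into 4 groups of 3 biological replicates, the strains Δmus-52 (control) and Δpac-3 each germinated with 10 µM (low-Pi) or 10 mM (high-Pi) phosphate. Germination lasted 5 h at 30 °C in medium of pH 5.4 with 44 mM sucrose and 50 mM sodium citrate. In Δpac-3 the bar gene replaces the pac-3 reading frame in a mus-52 knockout background, so by its description the mus-52 deletion is shared by all 4 groups. The parent cultures were 5 days old for Δmus-52 but 10 days old for Δpac-3. They were kept at 30 °C in the dark and then at room temperature in ambient light, the latter for longer in Δpac-3. Strain thus cannot be told apart from culture age or from the time spent at room temperature in light. The protocols name no heat shock.

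Molecular chaperones hold unfolded protein chains until they fold, refold or cross a membrane, and heat shock proteins are the chaperones that cells make in larger amounts when proteins unfold. Many of them are also abundant at normal temperature, because new and imported proteins need them. Each compartment has its own set: Hsp70 and Hsp90 proteins in the cytosol, a barrel-shaped chaperonin in the mitochondrial matrix, and a dedicated Hsp70 (BiP) in the endoplasmic reticulum.

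Total counts ran from 20240314 to 82211503 per library, and log2 normalised counts of replicates correlated across genes at 0.968 to 0.981 in Δpac-3 high-Pi and at 0.989 or higher in the other 3 groups. The pac-3 gene (NCU00090), the target of the deletion, averaged 515 and 397 normalised counts (CPM, scaled to library size) in Δmus-52 low-Pi and high-Pi, against 149 and 156 CPM in Δpac-3. Each Δpac-3 library thus held 3000 to 12710 pac-3 reads (130 to 183 CPM), which goes against a complete deletion under that label, and counts per gene do not show whether these reads lie in the replaced part. The mus-52 gene (NCU00077) averaged 22.5 CPM (low-Pi) and 21.1 CPM (high-Pi) under the label Δmus-52 but 0.0660 and 0.399 CPM under the label Δpac-3, which goes against the label of the control. For both reasons, strain names below are those of the labels. The strain comparisons thus also hold a difference in mus-52 level, which cannot be told apart from the other differences between the strains. The labelled tissue, mycelium, was checked with 4 conidial genes (con-6, con-8, con-10 and eas), whose summed level was 12.7 to 40.0 CPM in Δmus-52 low-Pi, 25.1 to 28.6 CPM in Δmus-52 high-Pi, 101 to 467 CPM in Δpac-3 low-Pi and 36.6 to 185 CPM in Δpac-3 high-Pi. Within this sum, eas alone averaged 290 CPM in Δpac-3 low-Pi and 83.3 CPM in Δpac-3 high-Pi, against 5.81 and 5.17 CPM in Δmus-52. None of the 4 conidial genes was at 0 in any group, and con-6 overlaps NCU08768 in the annotation. Genes were scaled by TMM, which assumes that most genes do not differ. With total counts as the only scaling, the median strain difference of all genes moved from 0.02 to 0.19 on the log2 scale in low-Pi and from -0.01 to 0.25 in high-Pi. The share of up-regulated genes among those called then went from 49.5% to 68.7% in low-Pi and from 53.2% to 78.9% in high-Pi. In these bulk samples, fewer cells of a type and less RNA per cell cannot be told apart.

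The 6 genes together held 0.343% to 0.449% of the counts of a library. Per kilobase of annotated gene span, hsp70-1, an Hsp70 of the cytosol, had the highest level of the 6 in each group, from 425 CPM per kb in Δpac-3 low-Pi to 661 CPM per kb in Δmus-52 high-Pi, which placed it between positions 132 and 149 among 9729 genes. The Hsp90 of N. crassa, hsp80, ranged from 311 to 402 CPM per kb, and hsp60, the mitochondrial chaperonin, from 188 to 439 CPM per kb. The grp78 gene, which encodes BiP, ranged from 111 to 200.0 CPM per kb. Far below these lay hsp30, a small heat shock protein, at 25.9 to 39.5 CPM per kb, and hsp98, the disaggregase related to yeast Hsp104, at 22.7 to 27.0 CPM per kb. The ratio of the highest to the lowest group mean was 2.33 for hsp60, 1.81 for grp78, 1.56 for hsp70-1, 1.53 for hsp30, 1.29 for hsp80 and 1.19 for hsp98.

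**Figure D1:**
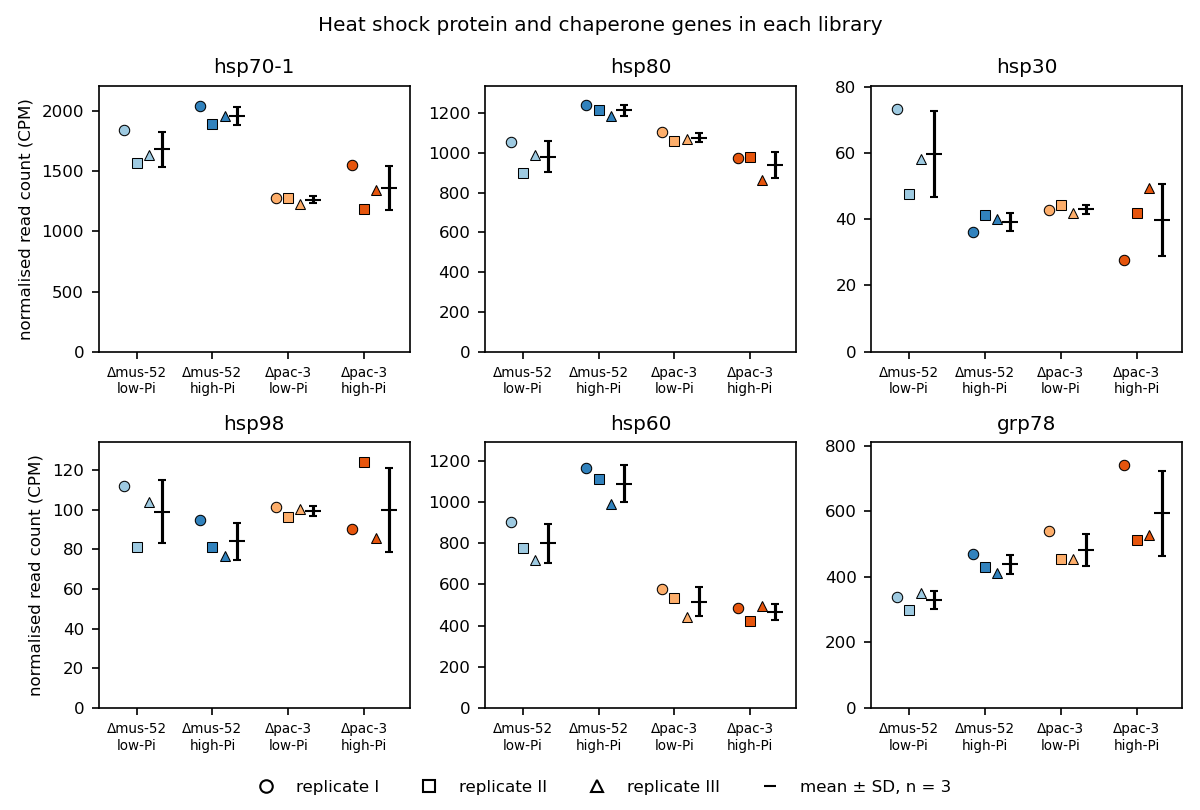
Normalised read counts (CPM, TMM-scaled, linear axes from 0) of the 6 genes in the 12 libraries, by group on the horizontal axis; symbols mark replicates I, II and III and bars the mean ± SD (n = 3). The hsp60 libraries labelled Δpac-3 (423 to 575 CPM) lie below all those labelled Δmus-52 (719 to 1166 CPM), while hsp98 overlaps between neighbouring groups.

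For the cytosolic chaperone hsp70-1, replicates I, II and III gave 1845, 1568 and 1638 CPM in Δmus-52 low-Pi and 2043, 1891 and 1957 CPM in Δmus-52 high-Pi. The libraries labelled Δpac-3 gave 1281, 1278 and 1229 CPM in low-Pi and 1553, 1183 and 1349 CPM in high-Pi. Every Δpac-3 library was below every Δmus-52 library, the 2 Δmus-52 groups did not overlap, and the 2 Δpac-3 groups did. The order of group means was Δmus-52 high-Pi (1963 ± 76.0 CPM, SD, n = 3), Δmus-52 low-Pi (1684 ± 144 CPM), Δpac-3 high-Pi (1362 ± 185 CPM) and Δpac-3 low-Pi (1262 ± 29.0 CPM).

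The partner chaperone hsp80 gave 1055, 898 and 992 CPM in Δmus-52 low-Pi and 1241, 1218 and 1184 CPM in Δmus-52 high-Pi. In Δpac-3 it gave 1104, 1060 and 1069 CPM in low-Pi and 974, 980 and 864 CPM in high-Pi. Its order thus differed from that of hsp70-1: Δmus-52 high-Pi was highest without overlap, Δpac-3 low-Pi came next without overlap, and Δmus-52 low-Pi and Δpac-3 high-Pi overlapped at the bottom.

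Among the low-abundance genes, hsp30 gave 73.4, 47.6 and 58.3 CPM in Δmus-52 low-Pi, and 36.2, 41.3 and 40.0 CPM in Δmus-52 high-Pi. Its Δpac-3 libraries gave 42.7, 44.3 and 41.8 CPM in low-Pi and 27.8, 41.9 and 49.3 CPM in high-Pi. Only the Δmus-52 low-Pi group stood apart, above all libraries of Δmus-52 high-Pi and Δpac-3 low-Pi, though its replicate II (47.6 CPM) was below replicate III of Δpac-3 high-Pi (49.3 CPM). The annotated span of hsp30 overlaps that of NCU10352 from 3588061 to 3588207. Whether reads were counted by strand is not given in the sources used here, so reads in this shared stretch could not be separated. NCU10352 averaged 65.1 to 78.4 CPM in the 4 groups, and the other 5 genes overlap no annotated gene. The disaggregase gene hsp98 ranged from 76.6 to 124 CPM over the 12 libraries, with group means of 84.2 to 99.9 CPM, and each group overlapped its neighbour in the order of means.

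Mitochondrial hsp60, which folds imported proteins, gave 904, 776 and 719 CPM in Δmus-52 low-Pi and 1166, 1114 and 990 CPM in Δmus-52 high-Pi. It gave 575, 533 and 439 CPM in Δpac-3 low-Pi and 484, 423 and 494 CPM in Δpac-3 high-Pi. All Δpac-3 libraries were therefore lower than all Δmus-52 libraries, high-Pi stood above low-Pi without overlap in Δmus-52, and the 2 Pi conditions overlapped in Δpac-3.

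The endoplasmic reticulum chaperone grp78 gave 337, 298 and 350 CPM in Δmus-52 low-Pi and 470, 430 and 412 CPM in Δmus-52 high-Pi. In Δpac-3 it gave 539, 455 and 454 CPM in low-Pi and 742, 512 and 527 CPM in high-Pi. Within a Pi condition the Δpac-3 libraries were all above the Δmus-52 libraries, the reverse of hsp60. The lowest group, Δmus-52 low-Pi, did not overlap with the next, while Δmus-52 high-Pi overlapped with Δpac-3 low-Pi and the 2 Δpac-3 groups with each other.

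At low-Pi, the Δpac-3 label went with lower hsp60, hsp70-1 and hsp30 (down-regulated) and with higher grp78 (up-regulated), and hsp80 and hsp98 did not pass the test. The Δpac-3 level of hsp60 was 0.648-fold that of Δmus-52, a log2 fold change of -0.63 (SE 0.13, 95% interval -0.91 to -0.34, edgeR adjusted p = 0.00249). For hsp70-1 the log2 fold change was -0.41 (SE 0.10, 95% interval -0.64 to -0.18, edgeR adjusted p = 0.00737). For hsp30 it was -0.47 (SE 0.14, 95% interval -0.78 to -0.16, edgeR adjusted p = 0.0165), and the overlapping NCU10352 had -0.02 (edgeR adjusted p = 0.904). In the other direction, grp78 was 1.48-fold higher, a log2 fold change of 0.56 (SE 0.11, 95% interval 0.32 to 0.80, edgeR adjusted p = 0.0016).

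The low-Pi value of hsp80 was 0.14 (95% interval -0.08 to 0.36, edgeR adjusted p = 0.26), although its 3 Δpac-3 libraries were above the 3 of Δmus-52, and that of hsp98 was 0.01 (95% interval -0.24 to 0.27, edgeR adjusted p = 0.937). Thus 1 of the 6 genes was called up, where 25.3% of the 8269 genes tested were, and 3 were called down, where 25.9% of all genes were. Libraries of the strains did not overlap for 5 of the 6 genes, against 59.7% of all genes. The study's further threshold of an absolute log2 fold change of 1.5 was reached by none of the 6 and by 9.6% of all genes. The size of the hsp60 difference exceeded that of 70.4% of all genes. With total counts as the only scaling, hsp70-1 (-0.23, edgeR adjusted p = 0.0693) and hsp30 (-0.30, edgeR adjusted p = 0.111) were no longer called, and hsp80 was called up (0.32, edgeR adjusted p = 0.0171). Without replicate I of Δmus-52 low-Pi, hsp30 had -0.30 (edgeR adjusted p = 0.0534).

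Of the 4 conidial genes, eas and con-8 were up-regulated under the Δpac-3 label in both Pi conditions. The con-6 and con-10 libraries of the 2 strains overlapped in both. In low-Pi, 3 of the 4 genes were up-regulated in Δpac-3, where 25.3% of all genes were. The log2 fold change of eas, a hydrophobin of the conidial surface, was 5.61 (edgeR adjusted p = 2.89e-05). It was 2.72 for con-8 (edgeR adjusted p = 0.000107), 1.54 for con-10 (edgeR adjusted p = 0.0404) and 1.13 for con-6 (edgeR adjusted p = 0.144). In high-Pi, eas (4.01, edgeR adjusted p = 0.00306) and con-8 (2.78, edgeR adjusted p = 0.021) were up-regulated, where 18.8% of all genes were. Of the 4 genes, con-10 at 1.58 (edgeR adjusted p = 0.0813) and con-6 at -0.75 (edgeR adjusted p = 0.322) did not pass the test. The part of these genes in the chaperone differences was not tested.

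At high-Pi, hsp60, hsp70-1 and hsp80 were lower under the Δpac-3 label and none of the 6 genes was called up. The hsp60 level in Δpac-3 was 0.426-fold that of Δmus-52, the largest difference of the 6 genes in the 4 comparisons, with a log2 fold change of -1.23 (SE 0.13, 95% interval -1.53 to -0.93, edgeR adjusted p = 0.000777), and its size exceeded that of 86.9% of all genes. For hsp70-1 it was -0.54 (SE 0.13, 95% interval -0.85 to -0.23, edgeR adjusted p = 0.0184), and for hsp80 -0.38 (SE 0.11, 95% interval -0.64 to -0.12, edgeR adjusted p = 0.0329). For grp78 it was 0.43 (SE 0.17, 95% interval 0.04 to 0.82, edgeR adjusted p = 0.0825), with all 3 Δpac-3 libraries above those of Δmus-52. Without replicate I of Δpac-3 high-Pi, the library with 742 CPM, grp78 had 0.23 (edgeR adjusted p = 0.2). The values of hsp30 (0.01, 95% interval -0.47 to 0.49) and hsp98 (0.24, 95% interval -0.16 to 0.63) did not pass the test.

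Of the 6 genes, 0 were called up in high-Pi against 18.8% of the 8284 genes tested, and 3 were called down against 16.6%. Libraries did not overlap for 4 of the 6, against 51.5% of all genes, and 9.14% of all genes but none of the 6 also reached the log2 fold change of 1.5. With total counts as the only scaling, hsp70-1 (-0.28, edgeR adjusted p = 0.0847) and hsp80 (-0.12, edgeR adjusted p = 0.434) were not called, grp78 was called up (0.69, edgeR adjusted p = 0.0124), and hsp60 remained down-regulated at -0.97. Leaving out any replicate of Δmus-52 high-Pi also ended the calls of hsp70-1 (edgeR adjusted p of 0.0558 to 0.0752) and hsp80 (0.0823 to 0.119), and leaving out replicate III of Δpac-3 high-Pi that of hsp80 (0.0638). In contrast, hsp60 in both Pi conditions and grp78 in low-Pi were called under each scaling, filter, tool, block and left-out library tried.

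**Figure D2:**
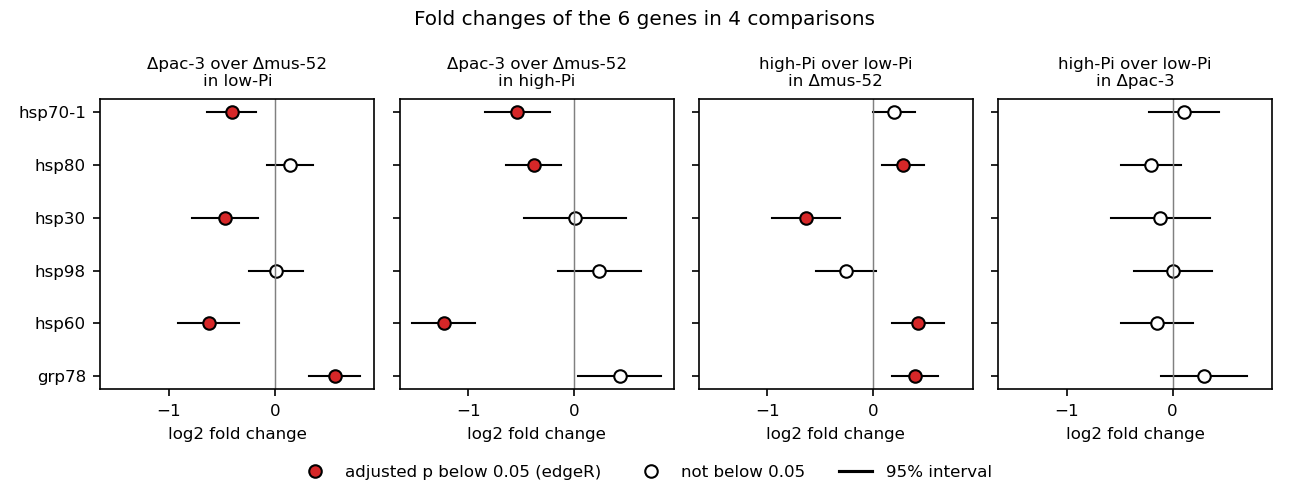
Log2 fold changes of the 6 genes (points) with 95% intervals (lines) from the edgeR fits, for Δpac-3 over Δmus-52 in low-Pi and high-Pi and for high-Pi over low-Pi in each strain; filled points have an adjusted p below 0.05. The hsp60 point lies lowest in both strain comparisons (-0.63 and -1.23), and no point is filled in the Δpac-3 response to Pi.

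**Figure D3:**
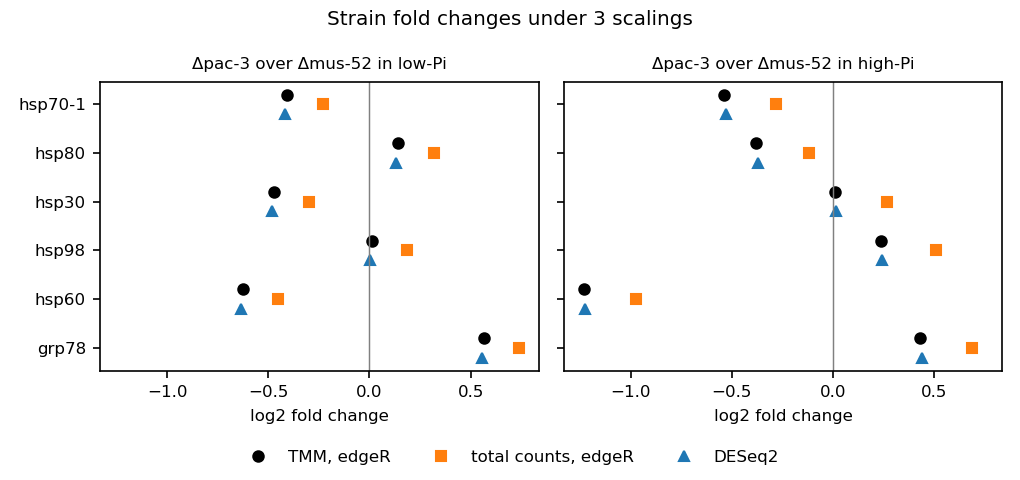
Log2 fold changes (horizontal axis) of the 6 genes for Δpac-3 over Δmus-52 in low-Pi and high-Pi under TMM with edgeR, total counts with edgeR, and DESeq2 with its size factors. Total counts place every gene farther to the right, which takes hsp80 in low-Pi from 0.14 to 0.32 and in high-Pi from -0.38 to -0.12, while DESeq2 lies next to TMM.

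The response to Pi was tested within each strain. In Δmus-52, hsp60, grp78 and hsp80 were up-regulated in high-Pi and hsp30 was down-regulated. The log2 fold change of high-Pi over low-Pi was 0.42 for hsp60 (SE 0.11, edgeR adjusted p = 0.015), 0.39 for grp78 (SE 0.10, edgeR adjusted p = 0.0125) and 0.28 for hsp80 (SE 0.09, edgeR adjusted p = 0.0345). It was -0.64 for hsp30 (SE 0.14, edgeR adjusted p = 0.00855), and the overlapping NCU10352 had 0.20, which did not pass the test. The values of hsp70-1 (0.20, edgeR adjusted p = 0.12) and hsp98 (-0.26, edgeR adjusted p = 0.144) did not pass, although the hsp70-1 libraries did not overlap.

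Hence 3 of the 6 genes were called up in Δmus-52, against 14.4% of the 8190 genes tested, and 1 was called down, against 18.1%. Libraries did not overlap for 5 of the 6 and for 48.3% of all genes, and none of the 6 but 3.6% of all genes also passed a log2 fold change of 1.5. Without replicate II of Δmus-52 low-Pi, which was the lowest of its group for 5 of the 6 genes, hsp80 (edgeR adjusted p = 0.14), hsp60 (0.0615) and grp78 (0.0623) were not called, and hsp98 was called down (-0.38, edgeR adjusted p = 0.0455). Without replicate II of Δmus-52 high-Pi, hsp80 (edgeR adjusted p = 0.107) and hsp60 (0.0617) were not called. The hsp80 call was also lost without replicate III of Δmus-52 low-Pi (0.0547), without replicate I of Δmus-52 high-Pi (0.0673) and with total counts as the only scaling (0.0562).

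In Δpac-3, none of the 6 genes passed the test for a response to Pi. The largest values were 0.29 for grp78 (95% interval -0.11 to 0.70) and -0.20 for hsp80 (95% interval -0.49 to 0.08), both with an edgeR adjusted p of 0.939. The hsp60 value was -0.15 (95% interval -0.48 to 0.19), with unadjusted p of the 6 genes from 0.132 to 0.981. This comparison called 0% of the 8348 genes up and 0% down, so 0% also with a log2 fold change of 1.5. At an unadjusted p below 0.05 edgeR gave 413 genes, 4.95% of those tested. At an adjusted p below 0.05, DESeq2 called 22 genes, and edgeR called 31 without replicate III of Δpac-3 high-Pi. Libraries did not overlap for 1 of the 6 genes, hsp80, which was lower in high-Pi, and for 10.8% of all genes. Replicates varied more in this fit than in that for Pi in Δmus-52 (common biological coefficient of variation 0.208 against 0.120). The strain fit in high-Pi had 0.208 as well, but the strain fit in low-Pi, which holds Δpac-3 low-Pi, had 0.121. The larger spread thus went with the Δpac-3 high-Pi libraries rather than with Δpac-3 in both Pi conditions.

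Whether the strain difference itself depended on Pi was tested as an interaction over the 12 libraries. For hsp80 the strain difference in high-Pi minus that in low-Pi was -0.51 (SE 0.14, 95% interval -0.80 to -0.21, edgeR adjusted p = 0.0355): its libraries were higher at high-Pi in Δmus-52 and higher at low-Pi in Δpac-3. It was the only one of the 6 genes called, where 10.5% of the 8465 genes tested were. The value of hsp60 was of similar size but did not pass (-0.59, SE 0.18, 95% interval -0.99 to -0.19, edgeR adjusted p = 0.0598), nor did those of hsp30 (0.50, edgeR adjusted p = 0.25), hsp98 (0.24), grp78 (-0.12) and hsp70-1 (-0.11). The hsp80 interaction was lost with total counts as the only scaling (-0.44, edgeR adjusted p = 0.0754) and in 9 of 12 fits that left out a library, with values of -0.56 to -0.45 and adjusted p of 0.0275 to 0.0979. With total counts, the share of positive values among all interactions called went from 71.9% to 83.0%. The strain and Pi comparisons share libraries, so their values for a gene are not independent of each other.

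Ratios of raw counts within a library hold no scaling factor, and were chosen after seeing the data. The ratio of hsp60 to grp78 was 2.69, 2.61 and 2.06 in Δmus-52 low-Pi and 2.48, 2.59 and 2.40 in Δmus-52 high-Pi. It was 1.07, 1.17 and 0.968 in Δpac-3 low-Pi and 0.653, 0.828 and 0.937 in Δpac-3 high-Pi. All Δpac-3 libraries were below all Δmus-52 libraries, with a log2 difference of means of -1.19 at low-Pi and -1.64 at high-Pi, each with p = 0.1 in a two-sided exact permutation test, the smallest p that 3 against 3 libraries allow.

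The ratio of hsp80 to hsp70-1, the cytosolic Hsp90 and Hsp70, was 0.583 ± 0.0191 (SD, n = 3) in Δmus-52 low-Pi and 0.854 ± 0.0212 in Δpac-3 low-Pi, without overlap (p = 0.1, two-sided exact permutation test). In high-Pi it was 0.619 ± 0.0217 in Δmus-52 and 0.699 ± 0.113 in Δpac-3, where replicate II (0.828) stood above the other libraries and the groups overlapped (p = 0.3, two-sided exact permutation test, n = 3). The grp78 to hsp70-1 ratio was 0.382 against 0.195 in low-Pi and 0.434 against 0.223 in high-Pi, Δpac-3 against Δmus-52, with no overlap in either. The hsp60 to hsp70-1 ratio was 0.408 against 0.475 in low-Pi, where libraries overlapped, and 0.345 against 0.555 in high-Pi, where they did not.

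**Figure D4:**
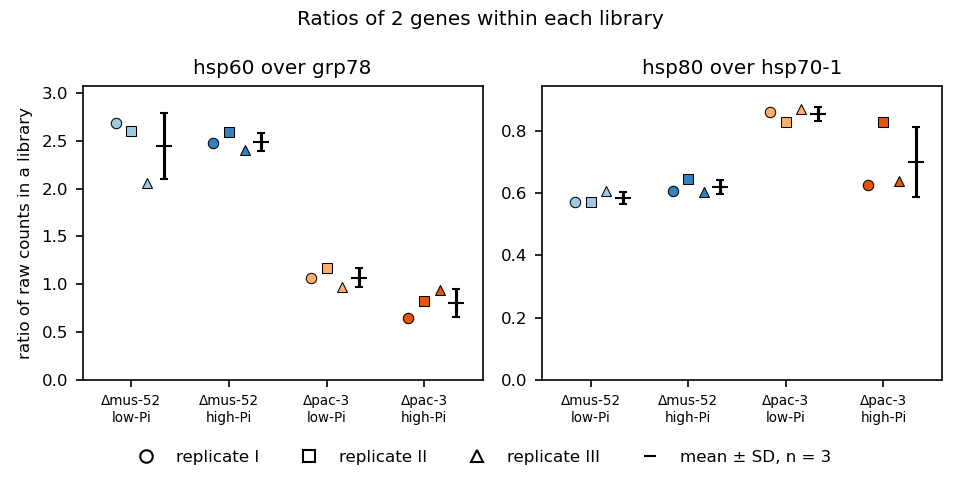
Ratio of raw counts of hsp60 over grp78 (left) and of hsp80 over hsp70-1 (right) in each of the 12 libraries, linear axes from 0, with symbols for replicates I, II and III and bars for the mean ± SD (n = 3). The hsp60 over grp78 ratio lies between 0.653 and 1.17 in Δpac-3 and between 2.06 and 2.69 in Δmus-52.

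The annotation names 5 further heat shock genes, and in low-Pi 3 of them were down-regulated in Δpac-3 and none was up-regulated, where 25.9% and 25.3% of all genes were. These were hsp70-5 (NCU08693; -0.86, SE 0.11, edgeR adjusted p = 8.79e-05), hsp88 (NCU05269; -0.71, SE 0.10, edgeR adjusted p = 0.000235), of the Hsp110 family, and hsp70-2 (NCU02075; -0.44, SE 0.11, edgeR adjusted p = 0.00666). In high-Pi 1 of the 5 was down-regulated, where 16.6% of all genes were: hsp70-5 (-1.15, SE 0.11, edgeR adjusted p = 0.000592), with hsp88 at -0.43 (edgeR adjusted p = 0.0682) and hsp70-2 at -0.28 (edgeR adjusted p = 0.253). The mean level of hsp70-5 was 1398 CPM in Δmus-52 low-Pi, 1781 CPM in Δmus-52 high-Pi, 765 CPM in Δpac-3 low-Pi and 806 CPM in Δpac-3 high-Pi, so that, as for hsp60, both Δmus-52 groups lay above both Δpac-3 groups. It was also the only one of the 5 that responded to Pi in Δmus-52 (0.32, edgeR adjusted p = 0.0259), and in Δpac-3 none did, as was so of all 8348 genes tested. The remaining genes, hsp78 (NCU02630) and hsp90a (NCU01792), named after their values were seen, had strain values of -0.05 and 0.09 in low-Pi and -0.23 and -0.09 in high-Pi, which did not pass the test. With total counts as the only scaling, the low-Pi calls of hsp70-5, hsp88 and hsp70-2 and the high-Pi call of hsp70-5 (-0.89) held, and hsp90a was called up in low-Pi (0.26, edgeR adjusted p = 0.0328).

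The median log2 fold change of the 5 genes for strain was -0.44 at low-Pi and -0.28 at high-Pi, beside -0.20 and -0.18 for the 6 genes above and 0.02 and -0.01 for all genes. With total counts they were -0.26 and -0.03 for the 5 and -0.02 and 0.08 for the 6, beside 0.19 and 0.25 for all genes. For Pi in Δmus-52 the medians were 0.19 for the 5, 0.24 for the 6 and -0.01 for all genes, and for Pi in Δpac-3 0.07, -0.06 and 0.00. Heat shock factors are a family of DNA-binding proteins, and heat induces many heat shock genes through members of this family. The hsf-1 gene (NCU08512) averaged 54.5 and 53.2 CPM in Δmus-52 low-Pi and high-Pi and 35.3 and 36.6 CPM in Δpac-3, and was down-regulated in Δpac-3 by both tests (-0.63, edgeR adjusted p = 0.000853, and -0.55, edgeR adjusted p = 0.0462). With total counts the high-Pi call was lost (-0.30, edgeR adjusted p = 0.179). Its annotated span overlaps NCU14141 and NCU10388, whose reads could not be separated from it. The hsf-2 gene (NCU08480) averaged 57.4 to 66.4 CPM in the 4 groups, with strain values of -0.01 (edgeR adjusted p = 0.952) and -0.08 (edgeR adjusted p = 0.672).

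**Figure D5:**
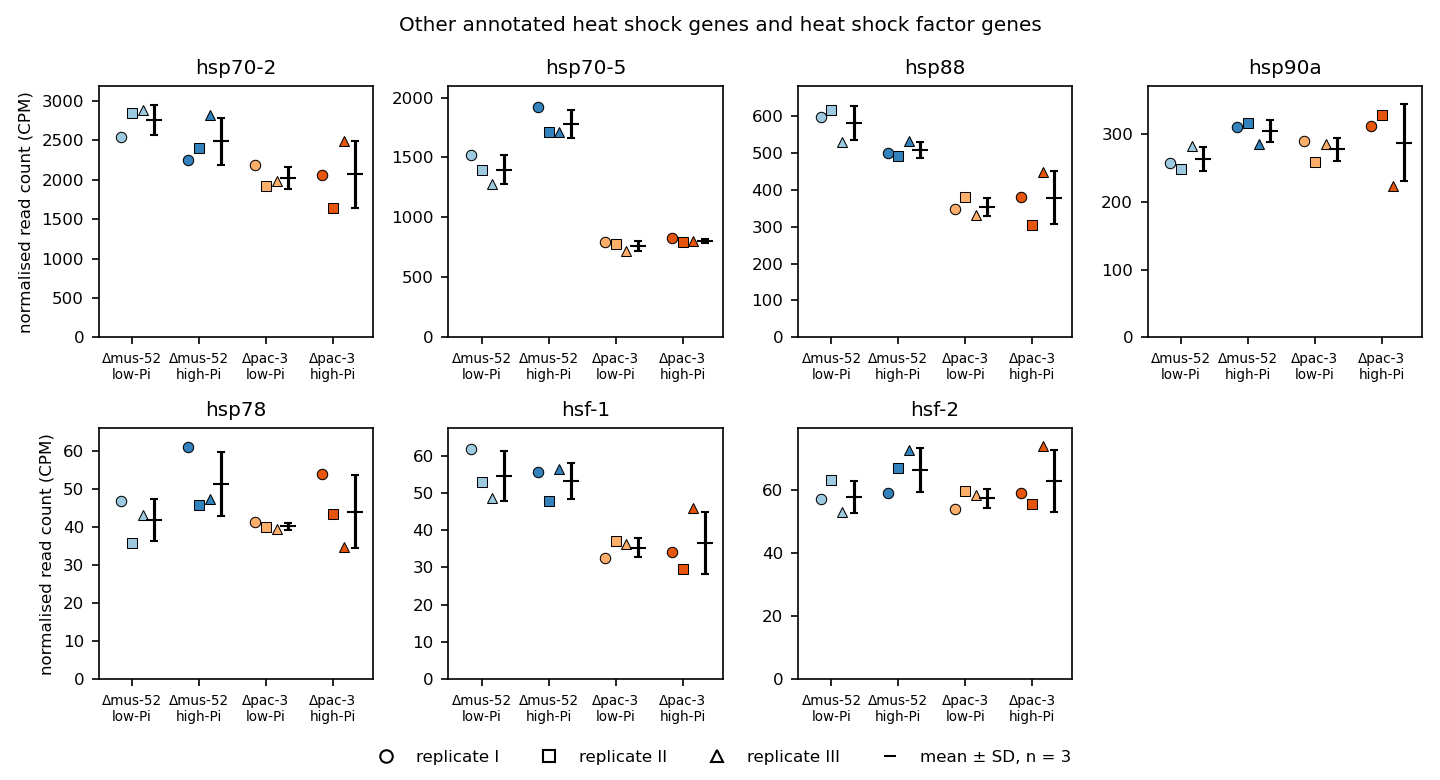
Normalised read counts (CPM, TMM-scaled, linear axes from 0) of the 5 other annotated heat shock genes and of hsf-1 and hsf-2 in the 12 libraries, with symbols for replicates I, II and III and bars for the mean ± SD (n = 3). The hsp70-5 means of Δpac-3 (765 and 806 CPM) lie below those of Δmus-52 (1398 and 1781 CPM), and hsf-2 lies between 57.4 and 66.4 CPM on average.

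The genes whose pattern over the 12 libraries was most like each of the 6 were found by Pearson's r of log2 CPM among 8465 genes. This is a description over libraries that fall into 4 groups, in which any gene with the same group means scores high. For hsp60 they were NCU06246 (r = 0.986) and atp-1 (NCU02514, r = 0.986), the alpha subunit of mitochondrial ATP synthase. For hsp70-1 they were NCU10687 (0.984) and NCU00446 (0.980), and for grp78 NCU12021 (0.971) and NCU04133 (0.970). The values were lower for hsp80 (NCU01858, 0.950, and NCU03008, 0.920), hsp30 (NCU07410, 0.890, and NCU03775, 0.882) and hsp98 (NCU06856, 0.885, and NCU01739, 0.855). Of the check genes, actin (NCU04173) had strain values of 0.00 at low-Pi and -0.29 at high-Pi (edgeR adjusted p = 0.106) and responded to Pi in Δmus-52 (0.32, edgeR adjusted p = 0.0123), while β-tubulin (NCU04054) had strain values of 0.07 and -0.01. With total counts β-tubulin was called up in low-Pi (0.24, edgeR adjusted p = 0.0386).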

How the data were processed

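Total RNA of 12 libraries was sequenced as paired-end reads by the authors, trimmed by quality and mapped to the NC12 genome assembly with Bowtie2 (FastQC 0.11.7 and Bowtie2 2.3.4 in the submitters' processing notes). Which tool counted the reads and whether it used strand are not given in the sources used here. The authors deposited raw counts per gene and library, without normalization. Their deposited comparison tables (means, fold changes and p-values) were not used.

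Counts were tested in R 4.3.3 with limma 3.58.1 and edgeR 4.0.16 on the 6 libraries of each comparison, and on all 12 for the interaction. Genes were kept by filterByExpr (minimum count 10, minimum total 15), scaled by TMM and tested by the quasi-likelihood F test, with Benjamini-Hochberg adjustment over all genes tested and a threshold of 0.05. The 95% intervals use the fit's t distribution. CPM used TMM factors of the 12 libraries. The p-values measure the spread between replicates described as biological. The procedure was tested on simulated data.

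DESeq2 1.42.0, total counts, no filter, a block by replicate number, 1 fit of all libraries, the study's fold threshold and each library left out were alternatives. Python 3.11.15, numpy 2.4.6, scipy 1.17.1, pandas 2.3.3 and matplotlib 3.10.9 gave ratios and figures. The RefSeq annotation table, also of NC12, held 9729 of 9730 gene IDs, and gave symbols, coordinates, spans and overlaps.

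Members and lists were chosen with earlier results of these data known. Named genes were the 6 members, the deleted and qPCR reference genes, the called genes of the list of other heat shock genes found by symbol, the heat shock factors, and for each member the 2 genes most like it. The 4 conidial genes were the markers of another cell state.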

Additional observations from a re-analysis of the deposited data

Results flagged for a closer look

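The strain difference of hsp80 differed between the Pi conditions by the interaction test. Its log2 fold change in high-Pi minus that in low-Pi was -0.51 (edgeR adjusted p = 0.0355). The 3 Δpac-3 libraries were above the 3 of Δmus-52 in low-Pi and below them in high-Pi, while 59.7% and 51.5% of all genes did not overlap there. In low-Pi the difference itself did not pass the test (0.14, edgeR adjusted p = 0.26). The interaction call was lost with total counts as the only scaling (edgeR adjusted p = 0.0754) and in 9 of 12 fits that left out a library.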

How the results depend on the processing

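Over the tool, scaling, filter, block, joint fit and left-out libraries, 319 values of the 6 genes kept their side of the threshold, 32 fell short of it and 9 newly passed it. No called value changed sign, but 11 values of hsp30 and hsp98 that did not pass the test did. With the added threshold of 1.5, 0 of the 6 genes were called in either strain comparison or for Pi in Δmus-52. Leaving out each library gave 1 to 3 of the 6 genes called for strain in high-Pi, 2 to 4 for Pi in Δmus-52 and 0 to 3 for the interaction. Over all genes these fits called 1582 of 8457 to 3200 of 8421 for strain in high-Pi. They called 1707 of 8311 to 2923 of 8194 for Pi in Δmus-52 and 392 of 8534 to 1585 of 8526 for the interaction. The interaction called 2 of the 6 genes with DESeq2, where 1317 of 8705 genes were called, and 0 with total counts, where 778 of 8465 were. With the replicate block it called 2 of the 6, where 1117 of 8465 genes were called. The second gene was hsp60 (adjusted p = 0.0261 with DESeq2 and 0.0358 with the block), which was also called without replicate III of Δpac-3 low-Pi (0.0457) or replicate I of Δpac-3 high-Pi (0.0491, with hsp30 at 0.0344). In 1 fit of the 12 libraries, hsp30 in low-Pi (0.0611) and grp78 for Pi in Δmus-52 (0.0634) were not called, and grp78 in high-Pi was (0.0261). The cause of these shifts was not tested.

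Same-numbered libraries deviated together at r of 0.0506 to 0.0666 for strain in low-Pi, -0.162 to 0.313 in high-Pi, 0.0819 to 0.254 for Pi in Δmus-52 and 0.0505 to 0.357 in Δpac-3. The study's methods name no block, and the main fits did not take the numbers as pairs. Libraries correlated best with their own number in 6, 4, 6 and 2 of 6 cases. The replicate block called 4, 3, 4 and 0 of the 6 genes in these comparisons, as without it, and moved the calls over all genes from 4231 to 4377, 2935 to 2969, 2666 to 3248 and 0 to 1, and for the interaction from 886 to 1117.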

Other observations

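A list of 22 genes of the mitochondrial import machinery (tim, tom and tob genes and un-4), taken by symbol after seeing the data, held 20 genes up-regulated and none down-regulated by high-Pi in Δmus-52 (median log2 fold change 0.43, edgeR), where 14.4% of all genes tested were up-regulated and 18.1% down-regulated. In Δpac-3 none of the 22 passed the test for Pi, nor did any of the 8348 genes tested. For strain in high-Pi, 14 were down-regulated in Δpac-3 and none up-regulated (median -0.56), against 16.6% and 18.8% of all genes, and in low-Pi 9 were down-regulated and 2 up-regulated (median -0.21), against 25.9% and 25.3%. With total counts as the only scaling, 9 of the 22 were down-regulated in high-Pi (median -0.30), where 689 of 8284 genes were (median of all genes 0.25). In low-Pi 4 were down-regulated and 5 up-regulated (median -0.04), where 1409 and 3086 of 8269 genes were (median of all genes 0.19). Of the 22, 19 still rose with Pi in Δmus-52, where 979 of 8190 genes did. DESeq2 called 6 interactions in the list, all negative, where it called 1317 of 8705 genes, 456 of them negative. By edgeR 2 of the 22 were called, beside 10.5% of all genes. The largest strain value in high-Pi was that of tim50 (NCU02943), part of the inner membrane translocase, which averaged 134 CPM in Δpac-3 and 290 CPM in Δmus-52 (-1.12, edgeR adjusted p = 0.00148). Next was tob55 (NCU05593), of the outer membrane sorting complex, at -1.12 (edgeR adjusted p = 0.00346). The small chaperones tim8 (NCU11311) and tim10 (NCU00930) were up-regulated in low-Pi (0.54, edgeR adjusted p = 0.00128, and 0.45, edgeR adjusted p = 0.0107). In the annotation tob55 overlaps NCU05594, tim8 overlaps NCU06226 and tim10 overlaps NCU00929, so their reads could not be separated from those of these neighbours. The same holds for tom5, tim44, tim13, tim14, tim54, tim17 and un-4, which each overlap an annotated neighbour, so the list counts share this limit. The 2 called by edgeR were tim8 (-0.83, edgeR adjusted p = 0.0109) and tom20 (-0.66, edgeR adjusted p = 0.0156).

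A list of 30 genes with proteasome symbols (pca, pcb, rpn and rpt) was chosen in the same way. Genes entered by symbol alone, so the list need not hold only parts of the proteasome. Many of them overlap an annotated neighbour, whose reads could not be separated, and rpn-4 is not among these. In low-Pi it held 8 genes up-regulated and 1 down-regulated in Δpac-3 (median 0.15), where 25.3% of all genes were up-regulated and 25.9% down-regulated. The share of up-regulated genes was thus close to that of all genes. In high-Pi it held 1 in each direction (median -0.14), where 18.8% and 16.6% of all genes were called. For Pi in Δmus-52, 8 were up-regulated and 1 was down-regulated in high-Pi (median 0.26), against 14.4% and 18.1% of all genes. For Pi in Δpac-3 none was called, as in all genes tested, with rpn-4 at 0.76 (unadjusted p = 0.00883, edgeR adjusted p = 0.928, libraries not overlapping). With total counts, 17 were up-regulated in Δpac-3 in low-Pi (median 0.33), where 3086 of 8269 genes were (median of all genes 0.19). The high-Pi median of the list turned to 0.12, beside 0.25 for all genes. DESeq2 called 13 up for Pi in Δmus-52, where it called 1274 of 8716 genes up. The down-regulated gene was rpn-4 (NCU01640) in both cases, at -1.13 for strain in low-Pi (edgeR adjusted p = 0.000429) and -0.84 for Pi in Δmus-52 (edgeR adjusted p = 0.00011). It was up-regulated in Δpac-3 in high-Pi (0.43, edgeR adjusted p = 0.0399), and its interaction of 1.58 (edgeR adjusted p = 0.0031) was the only one that edgeR called in the list.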
